A study of Mus musculus with 9 samples.

Results

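The genes described here are 36 genes of the unfolded protein response, the integrated stress response and the heat shock response, taken by symbol from a table of 54532 mouse Ensembl identifiers. The 36 symbols matched 37 identifiers, because Ddit3 has a second one (ENSMUSG00000116429) that had no count in any library. The other 36 identifiers all passed the filter on low counts, which left 12012 genes for testing, although Hspb1 and Hspa1a passed it only through the PyMT-N libraries, where they are high, so that their values are given below as a description, with no p. RNA was sequenced from bone marrow neutrophils of wild type C57/B6 mice. Cultures ran for 12 h at 0.5% fetal bovine serum, together with PyMT-N cells (3 libraries), together with PyMT-M cells (3 libraries) or alone (3 libraries). FACS sorting followed for neutrophils of both co-cultures. PyMT, the polyoma middle T antigen, is an oncogene used in mouse models of mammary cancer. The sources used here do not give what N and M stand for, whether each is a clone, or whether the neutrophils kept alone were sorted. Sorting and co-culture therefore cannot be told apart in a comparison with the alone libraries. The libraries are called biological replicates, and their names carry a number that recurs in each of the 3 groups, but whether it marks an animal is not stated, so p-values measure the spread between these libraries.

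Proteins that enter the endoplasmic reticulum (ER) are folded there by chaperones and disulfide isomerases, and those that fail are sent back to the cytosol for degradation. When unfolded protein accumulates, the sensors IRE1, ATF6 and PERK raise transcription of that machinery and slow translation, and the slowing of translation through eIF2 alpha, which other kinases can also start, is the integrated stress response with ATF4 as its main transcription factor. The heat shock response is the matching program of the cytosol, driven by the factor HSF1, and mitochondria hold a chaperonin of their own. XBP1, the factor that IRE1 activates, is known for its role in secretory cells such as plasma cells, and in mice for a part in the development of eosinophils.

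Library totals ran from 1641049 to 4524563 counts, with the lowest total and the fewest detected genes (11814) in alone replicate 3. In that library 1.75% of counts were mitochondrial messenger RNA, where alone replicates 1 and 2 had 0.235% and 0.180%, and it stood apart from all others on the third principal component. The co-culture libraries carried transcripts of other cell types. The 14 epithelial markers summed to 2440 to 3339 normalised CPM (counts scaled to library size by the trimmed mean of M values) with PyMT-N cells, to 114 to 178 with PyMT-M cells and to 70.9 to 128 alone. Of these markers 13 were higher in PyMT-N co-culture than alone and 14 higher than in PyMT-M co-culture; Cldn3, Cldn4 and Esrp1 were at 0 with PyMT-M cells, and Epcam, Krt19, Cldn4 and Esrp1 were at 0 alone. The 15 mesenchymal markers, 12 of them tested, summed to 1075 to 1231 normalised CPM with PyMT-N cells, 1318 to 1393 with PyMT-M cells and 131 to 192 alone. All 13 neutrophil markers were detected in each group, and they summed to 16029 to 20277 normalised CPM with PyMT-N cells, 15937 to 20356 with PyMT-M cells and 33262 to 46877 alone. Beneath the similar sums of the co-cultures, 5 of the 13 were higher and 4 lower with PyMT-N than with PyMT-M cells. Ltf averaged 44.5 normalised CPM with PyMT-N and 1514 with PyMT-M cells, and Il1r2 averaged 760 and 72.4 in that order. In bulk RNA, fewer cells of a type and less RNA per cell cannot be told apart. The part of these other transcripts in the stress gene results was not tested. Markers of promyelocytes summed to 1.94 to 5.23 normalised CPM with PyMT-N cells, 3.44 to 7.45 with PyMT-M cells and 101 to 182 alone. Like the sum of the neutrophil markers, they were lower in both co-cultures than alone. Most markers of B and plasma cells were too, with 8 of 9 tested lower with PyMT-N cells and 7 of 9 with PyMT-M cells. Monocyte and macrophage markers summed to 154 to 264 normalised CPM with PyMT-N cells, 160.3 to 188 with PyMT-M cells and 598 to 1100.4 alone. Those of basophils, mast cells and eosinophils summed to 17.1 to 19.6 with PyMT-N cells, 7.95 to 9.93 with PyMT-M cells and 348 to 465 alone, and those of dendritic cells to 35.5 to 49.9, 16.0 to 25.2 and 340.0 to 621 in the same groups. The mitochondrial ribosomal RNA mt-Rnr2 took 2.65% to 4.005% of counts with PyMT-N cells, 6.12% to 11.1% with PyMT-M cells and 5.92% to 12.7% alone. Their part was not tested either. The strand setting of the counting is not given, and exons of some of the 36 genes overlap those of another gene on the opposite strand: Manf with Dcaf1, Ddit3 with Mars, Pdia6 with Atp6v1c2, Pdia3 with Catsper2, Syvn1 with Mrpl49, Ppp1r15a with Tulp2 and Hspa1a with Gm20481. Manf also shares exon positions with Rbm15b on its own strand, so counts of these genes are uncertain to that extent.

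Counts give shares of a library, so each direction below is for trimmed-mean scaling unless another is named. With library totals in its place, the median over all 12012 genes shifted by 0.29 (log2) for PyMT-N co-culture against alone, by 0.50 for PyMT-M co-culture against alone and by -0.21 between PyMT-N and PyMT-M co-culture. With 25 pan-leukocyte genes as the scale, called leukocyte scaling below, the shift was 1.21 with PyMT-N cells and 1.64 with PyMT-M cells, each against alone, and -0.43 between the co-cultures. Relative log expression shifted the 3 medians by 0.05, 0.11 and -0.06 in that order of comparisons.

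Promoter elements of the 3 responses are shown first, because the genes that carry them are those the results return to. RefSeq windows from 250 bases before to 50 after a gene's start (build GRCm38.p6) were at hand for 31 of the 36 genes, in 34 windows; Manf, Atf6, Hsp90ab1, Hspa8 and Hsp90aa1 had none. The ER stress response element, letters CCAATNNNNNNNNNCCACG on either strand, is bound by ATF6 with the factor NF-Y. It occurred in 7 of the 31 genes and in 0.137% of all 27025 genes with a window. Capitals mark the letters searched, and each element is printed 5′ to 3′ in the direction of the motif, with its own GRCm38.p6 coordinates and strand.
Hspa5 (chr2:34772025-34772043, plus strand): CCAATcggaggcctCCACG
Hsp90b1, first (chr10:86705638-86705656, minus strand): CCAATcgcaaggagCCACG
Hsp90b1, second (chr10:86705533-86705551, plus strand): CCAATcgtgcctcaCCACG
Calr (chr8:84847075-84847093, plus strand): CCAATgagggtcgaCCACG
Canx (chr11:50325800-50325818, minus strand): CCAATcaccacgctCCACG
Pdia6 (chr12:17266491-17266509, plus strand): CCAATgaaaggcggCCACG
Dnajc3 (chr14:118937827-118937845, plus strand): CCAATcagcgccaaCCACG
Syvn1 (chr19:6046532-6046550, plus strand): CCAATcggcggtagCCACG

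The shorter element ERSE-II, ATTGGNCCACG, was found in Herpud1 and Dnajb11, against 0.0444% of all genes with a window.
Herpud1 (chr8:94386377-94386387, plus strand): ATTGGgCCACG
Dnajb11 (chr16:22857852-22857862, plus strand): ATTGGcCCACG
The core of the XBP1 site, TGACGTGG, was in none of the 31 genes and in 0.714% of all genes, which says only that these letters are not in these windows. A C/EBP-ATF response element, TGATGNAA, the kind of site ATF4 and CHOP bind, occurred in 4 of the 31 genes and in 4.51% of all genes.
Atf3 (chr1:191183436-191183443, plus strand): TGATGcAA
Chac1 (chr2:119351049-119351056, minus strand): TGATGcAA
Trib3 (chr2:152344039-152344046, plus strand): TGATGtAA
Herpud1 (chr8:94386317-94386324, minus strand): TGATGcAA
A heat shock element of 3 alternating units, GAANNTTCNNGAA, which HSF1 binds, occurred in 3 of the 31 genes and in 0.662% of all genes. The windows of Hspe1 and of 1 of the 2 Hspd1 starts, which face away from each other on chromosome 1, share the same pair of overlapping matches.
Hspd1 and Hspe1, first (chr1:55088064-55088076, plus strand): GAAccTTCcgGAA
Hspd1 and Hspe1, second (chr1:55088059-55088071, minus strand): GAAggTTCtaGAA
Hsph1 (chr5:149636288-149636300, plus strand): GAActTTCcaGAA

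For context, the 250 bases before the start are printed for Hspa5, which encodes BiP, the central ER chaperone, and for Hspe1, with the elements above in capitals. Both run 5′ to 3′ on the plus strand, as chr2:34771840-34772089 and chr1:55087898-55088147.
Hspa5: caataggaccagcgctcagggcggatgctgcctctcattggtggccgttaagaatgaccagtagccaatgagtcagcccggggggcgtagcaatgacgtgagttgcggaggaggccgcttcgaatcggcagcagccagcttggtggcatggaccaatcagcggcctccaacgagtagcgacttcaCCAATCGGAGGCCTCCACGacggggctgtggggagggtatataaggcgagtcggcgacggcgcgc
Hspe1: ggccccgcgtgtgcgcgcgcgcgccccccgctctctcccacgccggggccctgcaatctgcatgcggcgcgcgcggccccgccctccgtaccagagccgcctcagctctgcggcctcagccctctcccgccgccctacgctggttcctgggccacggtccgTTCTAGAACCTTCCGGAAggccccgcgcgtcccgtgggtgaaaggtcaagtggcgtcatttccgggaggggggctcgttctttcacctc

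Both co-cultures had higher levels of most chaperones of the ER, cytosol and mitochondria than neutrophils alone, while 5 genes in each were lower by trimmed-mean scaling. With leukocyte scaling 3 of the 5 with PyMT-N cells (Herpud1, Edem1 and Dnajb1, but not Eif2ak3 and Ddit3) and all 5 with PyMT-M cells (Edem1, Eif2ak3, Xbp1, Ddit3 and Sesn2) turned positive. Under that scaling Herpud1 (0.0088) and Dnajb1 (0.42) with PyMT-N cells and Ddit3 (0.39) with PyMT-M cells did not pass the threshold, so these were not called higher. In PyMT-N co-culture 20 of the 36 genes were higher and 5 lower than alone, with 11 not past an adjusted p of 0.05 in edgeR's quasi-likelihood test, adjusted over all 12012 genes. Among all genes tested 29.4% were higher and 23.6% lower in that comparison. In PyMT-M co-culture 18 of the 36 were higher and 5 lower than alone, with 13 not past the threshold, against 28.1% and 27.9% of all genes. The median log2 fold change of the 36 was 0.89 with PyMT-N cells, where that of all genes was 0.12. It was 0.78 with PyMT-M cells, or 0.77 with Hspa1a at its bound, Hspa1b at its ratio of counts and Hspb1 left out, where that of all genes was -0.03. The comparisons with alone share the alone libraries. Between the co-cultures 12 of the 36 were higher and 8 lower with PyMT-N than with PyMT-M cells, against 19.1% and 15.5% of all genes, and the median was 0.29 against -0.02. Without Hspb1 and Hspa1a, 18 of 34 were higher with PyMT-N cells and 18 of 34 with PyMT-M cells than alone, and 10 of 34 were higher between the co-cultures, with medians of 0.85, 0.77 and 0.16. Both counts of 18 still hold Hspa1b. No alone library reached the filter's minimum for Hspa1b, so its calls against alone carry no weight. Calr, Dnajc3, Sdf2l1, Syvn1, Atf6 and Atf3 passed the threshold in none of the 3 comparisons. Leaving out alone replicate 3 gave 8 lower with PyMT-M cells, with Herpud1 (-0.49), Ern1 (-0.99) and Chac1 (-1.05) added. It also gave 16 higher and 9 lower between PyMT-N and PyMT-M co-culture, with Hsp90b1, Syvn1, Atf3 and Hsp90aa1 added as higher and Hsph1 as lower, as did a fit of those groups on their own. Fold changes below are log2 values ± SE, those between the co-cultures being PyMT-N over PyMT-M, and levels are normalised CPM of replicates 1, 2 and 3, in that order, or means ± SD with n = 3.

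**Figure D1:**
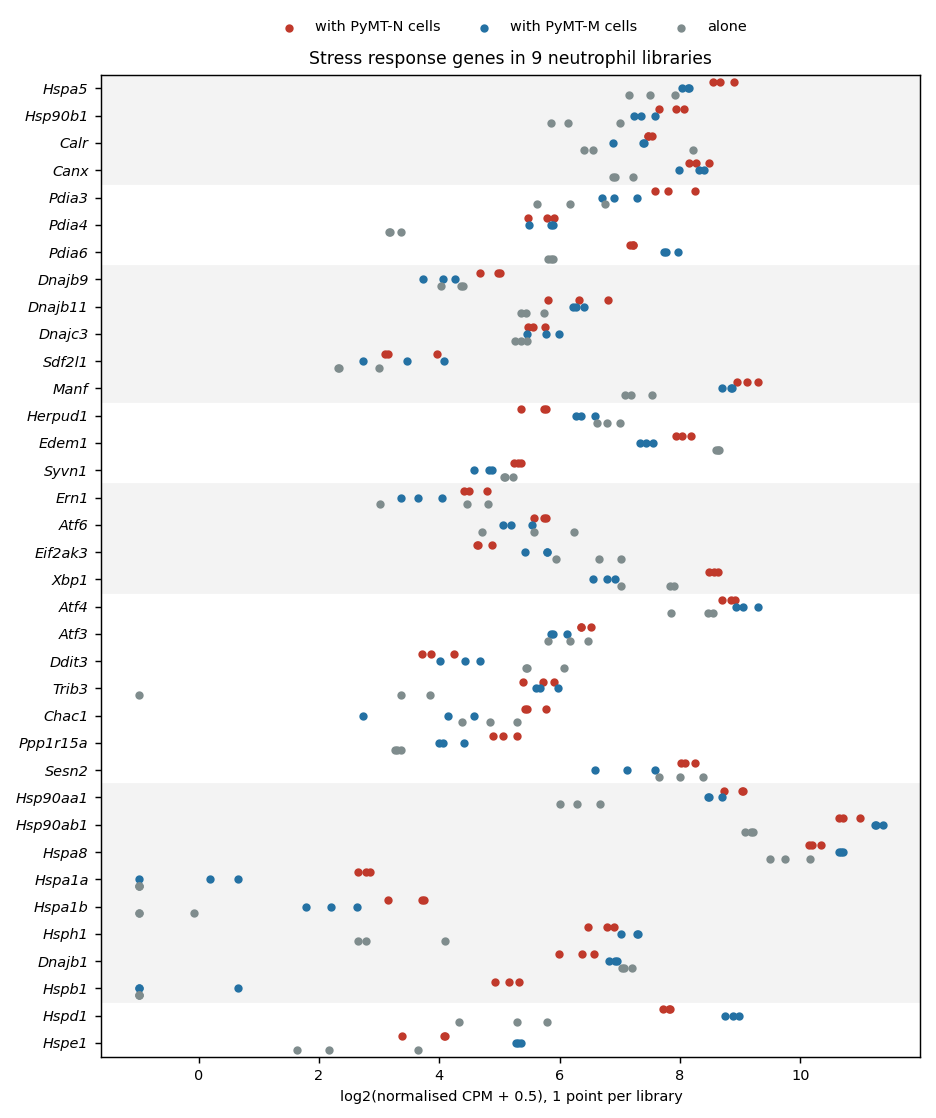
Level of the 36 genes in every library, as log2 of normalised CPM plus 0.5 on the horizontal axis, with 1 point per library and shading by role. Points of both co-cultures lie to the right of the alone points for Pdia4, Manf, Hsp90aa1, Hsp90ab1, Hsph1 and Hspd1, and, at this trimmed-mean scaling, to the left of them for Edem1, Eif2ak3 and Ddit3; with leukocyte scaling the differences from alone turned positive for Edem1 and, with PyMT-M cells, for Eif2ak3 and Ddit3. That positive value of Ddit3 did not pass the threshold.

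**Figure D2:**
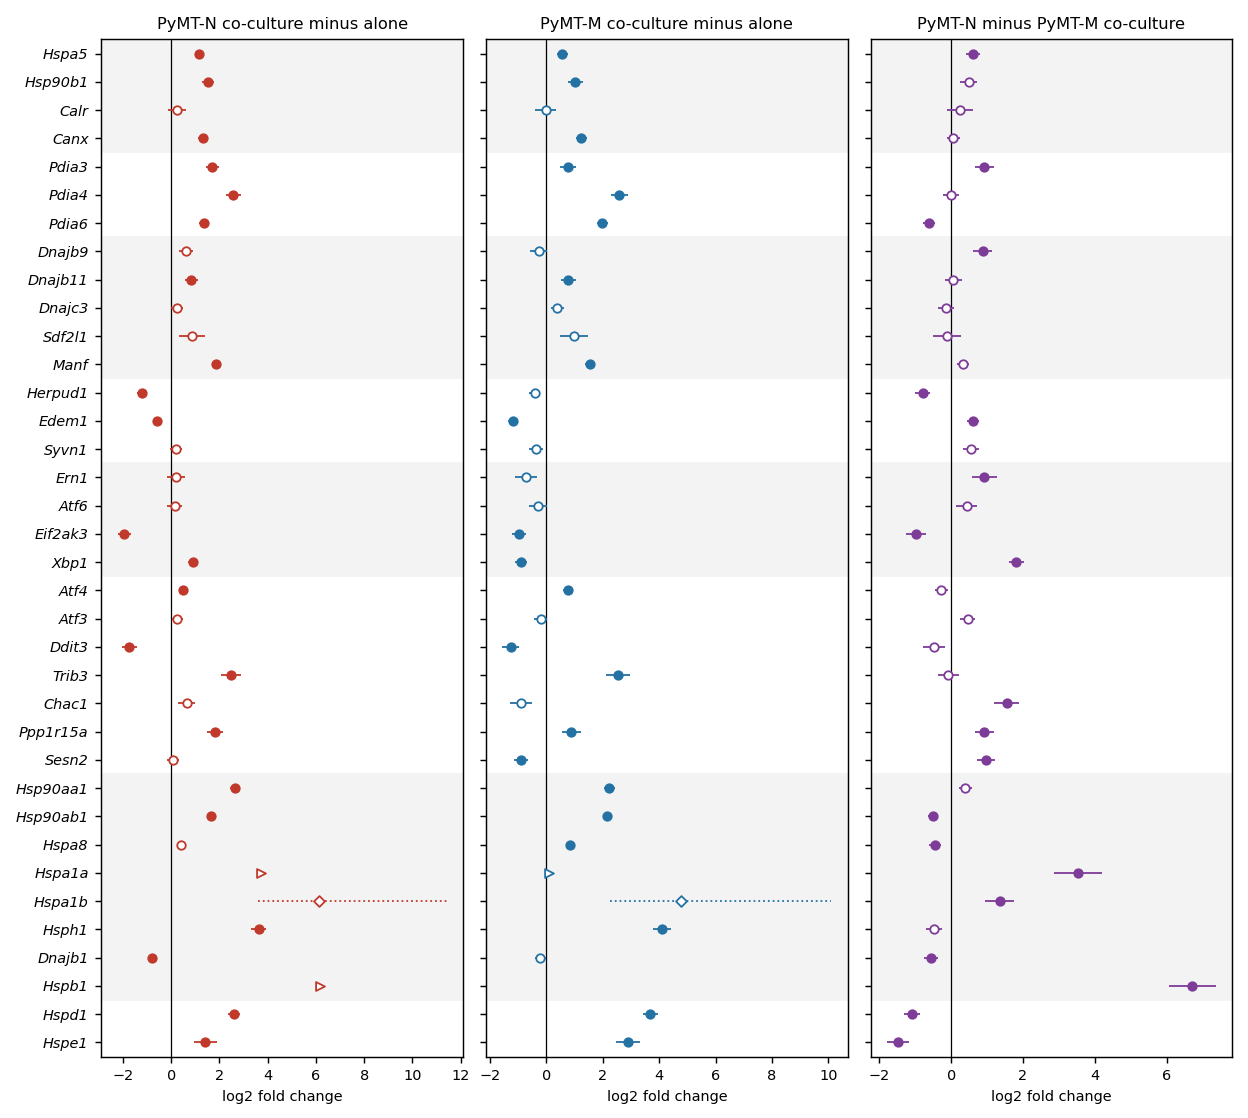
Log2 fold change of each gene in the 3 comparisons, with bars of 1 SE. Filled circles passed an adjusted p of 0.05 and open circles did not. The filled circles of Hspb1 and Hspa1a in PyMT-N against PyMT-M co-culture are a description only, as both passed the count filter only through the PyMT-N libraries. Triangles are lower bounds against groups without counts, and diamonds with dotted lines are ratios against 1 count with their 95% counting interval; Xbp1 reaches 1.81 in PyMT-N against PyMT-M co-culture.

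The general ER chaperones rose in both co-cultures, with 3 of 4 genes past the threshold in each. Hspa5 (ENSMUSG00000026864, chromosome 2, 34771970 to 34777547, GRCm38) encodes BiP, which holds unfolded chains and keeps the stress sensors inactive. Its level was 404, 375 and 479 with PyMT-N cells, 279, 284 and 262 with PyMT-M cells and 142, 180.5 and 242 alone. No group overlapped another, with PyMT-N libraries highest and alone libraries lowest. It changed by 1.17 ± 0.20 with PyMT-N cells (adjusted p = 1.58e-04), 0.56 ± 0.20 with PyMT-M cells (adjusted p = 0.0241) and 0.61 ± 0.19 between PyMT-N and PyMT-M co-culture (adjusted p = 0.0213). The call for PyMT-M cells was lost without alone replicate 1 (0.40, adjusted p = 0.120), without alone replicate 2 or without PyMT-M replicate 1 or 2. The call between the co-cultures was lost without PyMT-N replicate 3 or any PyMT-M library, and with DESeq2 (0.54), library totals (0.39, adjusted p = 0.116) or leukocyte scaling (0.17, adjusted p = 0.542).

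Hsp90b1, the HSP90 family chaperone GRP94 of the ER, stood at 199.8, 267 and 243 with PyMT-N cells, 163, 192 and 151 with PyMT-M cells and 57.5, 69.9 and 128 alone. Every co-culture library was above every alone library, and the fold change was 1.52 ± 0.26 with PyMT-N cells (adjusted p = 1.61e-04) and 1.03 ± 0.26 with PyMT-M cells (adjusted p = 0.00332). Canx encodes calnexin, a membrane lectin that retains glycoproteins until they are folded. Its level was 284, 355 and 309 with PyMT-N cells, 317, 336 and 254 with PyMT-M cells and 118, 119.9 and 149 alone. The co-cultures overlapped each other and not the alone libraries, at 1.31 ± 0.19 with PyMT-N cells (adjusted p = 3.38e-05) and 1.24 ± 0.19 with PyMT-M cells (adjusted p = 5.88e-05).

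Calr, the soluble lectin partner of calnexin, was the chaperone of this set with no call. It stood at 176, 177 and 186 with PyMT-N cells, 168, 166 and 117 with PyMT-M cells and 83.8, 93.4 and 298 alone. Alone replicate 3 was the highest of all 9 libraries and the other alone libraries were the lowest. The fold change was 0.23 ± 0.37 with PyMT-N cells (adjusted p = 0.622) and -0.02 ± 0.37 with PyMT-M cells (adjusted p = 0.981). Without alone replicate 3, which stood apart in other measures too, it was 1.02 with PyMT-N cells (adjusted p = 1.18e-04) and 0.78 with PyMT-M cells (adjusted p = 0.00163).

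All 3 protein disulfide isomerases, which form and reshuffle disulfide bonds, rose in both co-cultures. Pdia4, known as ERp72, stood at 54.8, 44.1 and 59.6 with PyMT-N cells, 44.3, 57.6 and 58.8 with PyMT-M cells and 8.47, 8.59 and 9.81 alone. The co-cultures overlapped and lay several-fold above the alone libraries, at 2.58 ± 0.31 with PyMT-N cells (adjusted p = 7.02e-06) and 2.60 ± 0.31 with PyMT-M cells (adjusted p = 8.17e-06). Pdia6 was 144, 148 and 148 with PyMT-N cells, 213, 218 and 250.2 with PyMT-M cells and 55.3, 59.0 and 57.3 alone. The PyMT-M libraries were highest and the alone libraries lowest, without overlap, at 1.36 ± 0.19 with PyMT-N cells (adjusted p = 2.15e-05), 1.99 ± 0.18 with PyMT-M cells (adjusted p = 9.01e-07) and -0.63 ± 0.17 between the co-cultures (adjusted p = 0.00792). Pdia3, the isomerase that works with calnexin and calreticulin, went the other way between the co-cultures. It stood at 192, 305 and 222 with PyMT-N cells, 119, 155 and 104 with PyMT-M cells and 71.3, 48.6 and 108 alone. The lowest PyMT-M library was below the highest alone library, while the PyMT-N libraries were above all others. Its fold change was 1.70 ± 0.28 with PyMT-N cells (adjusted p = 1.17e-04), 0.78 ± 0.28 with PyMT-M cells (adjusted p = 0.0266) and 0.92 ± 0.26 between the co-cultures (adjusted p = 0.0108). The call with PyMT-M cells was lost without alone replicate 1 or 2 (0.76 and 0.53) or PyMT-M replicate 2 (0.61), and that between the co-cultures without PyMT-N replicate 2 (0.72) or PyMT-M replicate 3 (0.80) and with leukocyte scaling (0.52).

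Among the J proteins and other partners of BiP, 2 of 5 rose in each co-culture. Manf encodes a small ER protein that binds BiP and can be secreted. Its level was 495, 555 and 631 with PyMT-N cells, 465, 417 and 459.7 with PyMT-M cells and 135, 145 and 184 alone. Both co-cultures lay far above the alone libraries, with fold changes of 1.87 ± 0.18 with PyMT-N cells (adjusted p = 5.92e-07) and 1.54 ± 0.18 with PyMT-M cells (adjusted p = 5.51e-06). Dnajb11, the J protein ERdj3, stood at 79.2, 111 and 55.5 with PyMT-N cells, 74.0, 84.4 and 76.7 with PyMT-M cells and 40.5, 52.7 and 43.0 alone. The lowest PyMT-N library was close to the highest alone library, and the fold changes were 0.83 ± 0.27 with PyMT-N cells (adjusted p = 0.0164) and 0.78 ± 0.27 with PyMT-M cells (adjusted p = 0.0220). The first call was lost without PyMT-N replicate 2 (0.57) or alone replicate 1 (0.75), and the second without PyMT-M replicate 2 (0.73) or alone replicate 1 (0.69). Dnajb9, the J protein ERdj4 and a target of XBP1, stood at 31.9, 25.1 and 30.8 with PyMT-N cells, 12.7, 18.7 and 16.2 with PyMT-M cells and 20.1, 20.5 and 15.8 alone. The PyMT-N libraries were above all others; the difference from PyMT-M co-culture was 0.88 ± 0.26 (adjusted p = 0.0175) and that from alone 0.61 ± 0.29 (adjusted p = 0.0914), which passed with library totals (0.89, adjusted p = 0.0187), DESeq2 (0.66, adjusted p = 0.0471) and leukocyte scaling (1.82, adjusted p = 9.25e-05). The first of these was lost without PyMT-N replicate 1 or 3 (0.82 and 0.84) or PyMT-M replicate 1 (0.73), with library totals (0.66) and with leukocyte scaling (0.44). Dnajc3, the J protein also called p58IPK, averaged 48.1 ± 5.14 with PyMT-N cells, 53.6 ± 9.68 with PyMT-M cells and 40.4 ± 2.76 alone, with no call in any comparison. Sdf2l1, a partner of ERdj3, averaged 10.5 ± 4.01 with PyMT-N cells, 11.0 ± 5.16 with PyMT-M cells and 5.48 ± 1.72 alone; its 0.98 ± 0.51 with PyMT-M cells (adjusted p = 0.114) passed without PyMT-M replicate 3 (1.26, adjusted p = 0.0474), with library totals (1.49, adjusted p = 0.0234) and with leukocyte scaling (2.61, adjusted p = 1.82e-04).

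Of the 3 genes of ER-associated degradation none was higher than alone by trimmed-mean scaling, whereas leukocyte scaling raised Edem1 and Syvn1 in both co-cultures and Herpud1 with PyMT-M cells. Edem1 encodes a protein that directs misfolded glycoproteins to degradation. It was 289.6, 260.3 and 243 with PyMT-N cells, 173, 160.3 and 187 with PyMT-M cells and 396, 402 and 389 alone. The alone libraries were highest and the PyMT-M libraries lowest, without overlap. By trimmed-mean scaling Edem1 fell by 0.58 with PyMT-N cells (SE 0.16, adjusted p = 0.00587) and by 1.19 with PyMT-M cells (SE 0.16, adjusted p = 2.21e-05), but leukocyte scaling gave 0.63 with PyMT-N cells and 0.46 with PyMT-M cells. Library totals ended the call with PyMT-N cells (-0.29, adjusted p = 0.131), as did the absence of a count filter (-0.51, adjusted p = 0.0504). Edem1 was higher with PyMT-N than with PyMT-M cells by 0.61 ± 0.16 (adjusted p = 0.00726), a call that library totals (0.39) and leukocyte scaling (0.16) ended. Herpud1, a membrane protein that organises the degradation complex and carries both ERSE-II and the C/EBP-ATF element above, was 54.2, 52.9 and 40.5 with PyMT-N cells, 95.2, 81.7 and 76.9 with PyMT-M cells and 111, 128 and 98.1 alone. The PyMT-N libraries were below all others. By trimmed-mean scaling Herpud1 fell by 1.21 with PyMT-N cells (SE 0.22, adjusted p = 2.60e-04), against 0.0088 with leukocyte scaling, and stood at -0.42 ± 0.21 with PyMT-M cells (adjusted p = 0.0990), against 1.22 with leukocyte scaling. It was lower with PyMT-N than with PyMT-M cells under all 4 scalings, at -0.79 ± 0.21 (adjusted p = 0.00837), with an adjusted p of 0.0618 without PyMT-N replicate 3. Syvn1, the ubiquitin ligase HRD1 of that complex, averaged 39.2 ± 1.61 with PyMT-N cells, 26.7 ± 2.90 with PyMT-M cells and 34.5 ± 2.09 alone and passed the threshold in no comparison.

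Of the 3 sensors and the transcription factor Xbp1, Xbp1 and the PERK gene differed in all 3 comparisons. Xbp1 (ENSMUSG00000020484, chromosome 11, 5520659 to 5525893, GRCm38) stood at 398, 358 and 376 with PyMT-N cells, 110.1, 93.0 and 121 with PyMT-M cells and 227, 237 and 129.7 alone. All PyMT-N libraries were above, and all PyMT-M libraries below, the alone libraries, the lowest of which was replicate 3. With PyMT-N cells Xbp1 rose by 0.91 ± 0.21 (adjusted p = 0.00201), under all 4 scalings and in all 9 fits that left out a library. With PyMT-M cells it fell by 0.90 (SE 0.22, adjusted p = 0.00262) by trimmed-mean scaling, but stood at -0.40 with library totals (adjusted p = 0.136) and at 0.76 with leukocyte scaling (adjusted p = 0.00717). The difference between PyMT-N and PyMT-M co-culture was 1.81 ± 0.21 (adjusted p = 1.01e-05). It remained past the threshold under all 4 scalings, with 1.37 under leukocyte scaling, and in all 9 fits that left out a library, with 1.71 to 1.89. The counts do not separate the spliced from the unspliced Xbp1 transcript. Of the plasma cell markers, Sdc1, which is also made by epithelial cells, averaged 1041 normalised CPM with PyMT-N cells, 420.3 with PyMT-M cells and 20.9 alone. It was the 1 of 9 tested markers of B and plasma cells that was higher than alone, while 8 were lower with PyMT-N cells and 7 with PyMT-M cells. Mzb1 averaged 0, 1.52 and 8.50 in the same order of groups. The epithelial markers above were highest with PyMT-N cells. The part of these transcripts in the Xbp1 difference was not tested.

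Eif2ak3 encodes PERK, the ER kinase that phosphorylates eIF2 alpha. It was 24.4, 28.9 and 24.1 with PyMT-N cells, 54.6, 54.8 and 42.6 with PyMT-M cells and 99.8, 129 and 61.1 alone. PyMT-N libraries were lowest and alone libraries highest, without overlap. It fell by 1.94 with PyMT-N cells (SE 0.27, adjusted p = 3.10e-05), and was the single lower call against alone that held under all 4 scalings, at -0.72 with leukocyte scaling (adjusted p = 0.0408). With PyMT-M cells it fell by 0.96 by trimmed-mean scaling (SE 0.26, adjusted p = 0.00523), but stood at -0.46 with library totals (adjusted p = 0.161) and at 0.68 with leukocyte scaling. Without alone replicate 2 the adjusted p with PyMT-M cells was 0.0504. Eif2ak3 was lower with PyMT-N than with PyMT-M cells by 0.98 on the log2 scale (-0.98 ± 0.27, adjusted p = 0.0107), with an adjusted p of 0.0536 without PyMT-N replicate 3.

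Ern1, the gene of IRE1 alpha, stood at 20.7, 22 and 27.3 with PyMT-N cells, 12.0, 9.73 and 16.0 with PyMT-M cells and 21.4, 27.6 and 7.54 alone. It did not pass the threshold against alone and differed between the co-cultures by 0.92 ± 0.34 (adjusted p = 0.0479). That call was lost with relative log expression (0.86), library totals (0.71), leukocyte scaling (0.50), a stricter count filter (0.91), the replicate number as a block (0.92) and DESeq2 (0.84), and in 6 of 9 fits that left out a library: any PyMT-N library, PyMT-M replicate 1 or 2 or alone replicate 1. Atf6 averaged 51.5 ± 3.65 with PyMT-N cells, 38.2 ± 6.96 with PyMT-M cells and 49.2 ± 24.5 alone, with the alone libraries spread over 25.8 to 74.7.

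**Figure D3:**
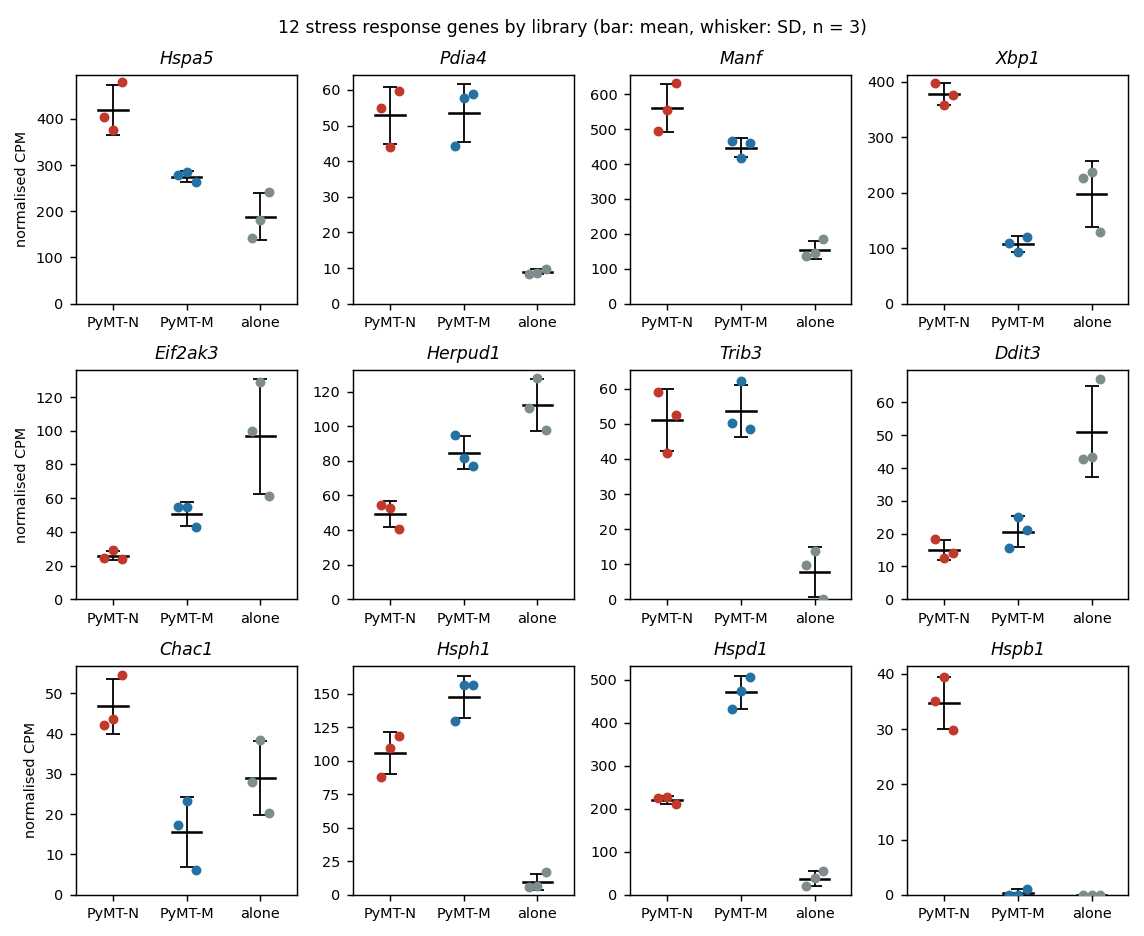
Normalised CPM of 12 of the genes by library, with PyMT-N co-culture, PyMT-M co-culture and alone from left to right; bars are means and whiskers SD (n = 3). Xbp1 lies at 358 to 398 with PyMT-N cells, 93.0 to 121 with PyMT-M cells and 129.7 to 237 alone, and Hspb1 has 35.0, 39.4 and 29.9 with PyMT-N cells against 4 counts with PyMT-M cells and none alone.

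The 7 genes of the integrated stress response split, with 3 higher and 1 lower with PyMT-N cells and 3 higher and 2 lower with PyMT-M cells than alone. Atf4, whose product is made when eIF2 alpha is phosphorylated, stood at 484, 413 and 462 with PyMT-N cells, 488, 527 and 629.5 with PyMT-M cells and 351, 376 and 230.0 alone. All co-culture libraries were above the alone libraries, of which replicate 3 was lowest. The fold change was 0.50 ± 0.19 with PyMT-N cells (adjusted p = 0.0393) and 0.77 ± 0.19 with PyMT-M cells (adjusted p = 0.00317). The call with PyMT-N cells was lost without alone replicate 3 (0.32, adjusted p = 0.0891), without PyMT-N replicate 1 or 3, with the replicate number as a block (adjusted p = 0.0538), with a stricter count filter (0.45) and in a fit of the compared groups (0.49).

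Trib3, a pseudokinase gene that ATF4 and CHOP induce, had 59.1, 41.6 and 52.5 with PyMT-N cells, 50.3, 62.2 and 48.4 with PyMT-M cells and 9.80, 13.8 and 0 alone. The 0 was in alone replicate 3, where a count of 0 allows up to 2.26 normalised CPM. The fold change was 2.47 ± 0.42 with PyMT-N cells (adjusted p = 1.66e-04) and 2.55 ± 0.42 with PyMT-M cells (adjusted p = 1.24e-04). Leaving out a library moved these to between 2.10 and 3.08 with PyMT-N cells and between 2.18 and 3.16 with PyMT-M cells, lowest without alone replicate 3 and highest without alone replicate 2. Ppp1r15a encodes GADD34, which directs the phosphatase that ends the response. It was 38.7, 32.8 and 29.1 with PyMT-N cells, 20.9, 16.2 and 15.4 with PyMT-M cells and 9.80, 9.34 and 9.05 alone. PyMT-N libraries were highest and alone libraries lowest, without overlap, at 1.82 ± 0.32 with PyMT-N cells (adjusted p = 2.50e-04), 0.89 ± 0.34 with PyMT-M cells (adjusted p = 0.0372) and 0.93 ± 0.25 between the co-cultures (adjusted p = 0.0104). The call with PyMT-M cells was lost without alone replicate 1 or 2 (0.93 and 0.89), without PyMT-M replicate 1 or 2 (0.76 and 0.97) and with no count filter (0.98). That between the co-cultures was lost without PyMT-N replicate 1 (0.81) or PyMT-M replicate 2 (0.86) and with leukocyte scaling (0.50).

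Ddit3, which encodes CHOP, a factor linked to cell death under lasting stress, moved against Trib3 by trimmed-mean scaling but not, with PyMT-M cells, by leukocyte scaling. It was 18.4, 12.7 and 14.0 with PyMT-N cells, 15.7, 25 and 21.0 with PyMT-M cells and 42.8, 43.3 and 67.1 alone. Every alone library was above every co-culture library. By trimmed-mean scaling Ddit3 fell by 1.73 with PyMT-N cells (SE 0.30, adjusted p = 2.24e-04) and by 1.27 with PyMT-M cells (SE 0.29, adjusted p = 0.00175), but leukocyte scaling gave -0.53 with PyMT-N cells (adjusted p = 0.182) and 0.39 with PyMT-M cells (adjusted p = 0.300). Sesn2, a stress-induced regulator of the kinase complex mTORC1, stood at 303, 259 and 272 with PyMT-N cells, 191, 138 and 95.6 with PyMT-M cells and 332, 255 and 199.9 alone. The PyMT-M libraries were below all others, at -0.89 ± 0.24 against alone (adjusted p = 0.00569) by trimmed-mean scaling, -0.39 with library totals and 0.73 with leukocyte scaling. The difference between PyMT-N and PyMT-M co-culture, 0.97 ± 0.24 (adjusted p = 0.00502), passed under all 4 scalings. Chac1, which encodes an enzyme that degrades glutathione, was 42.2, 43.5 and 54.5 with PyMT-N cells, 17.2, 23.3 and 6.12 with PyMT-M cells and 28.1, 38.5 and 20.4 alone. Its PyMT-N libraries were highest, and it differed between PyMT-N and PyMT-M co-culture by 1.55 ± 0.35 (adjusted p = 0.00271), again under all 4 scalings. Against alone it stood at 0.64 ± 0.36 with PyMT-N cells (adjusted p = 0.147) and at -0.91 ± 0.39 with PyMT-M cells (adjusted p = 0.0592), a value that passed without PyMT-M replicate 2 (-1.31), without alone replicate 3 (-1.05) and with a stricter count filter (-0.95). Atf3, a factor induced by many stresses, averaged 84.8 ± 6.11 with PyMT-N cells, 61.7 ± 6.35 with PyMT-M cells and 71.8 ± 16.3 alone.

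The cytosolic heat shock proteins held the largest rises among the 36 genes. With PyMT-N cells 6 of 8 genes were higher and 1 lower than alone, and with PyMT-M cells 5 were higher. Hspb1 and Hspa1a are among the 6, and Hspa1b is among the 6 and among the 5. Per kilobase of exon, Hsp90ab1 had the highest mean level of the 36 genes in PyMT-N and PyMT-M co-culture, at 590.0 ± 79.7 and 838 ± 42.8 normalised CPM per kilobase, and had 189.8 ± 8.92 alone, where Hspa8, at 212 ± 49.9, did not differ from it beyond the spread. Hsp90ab1, the HSP90 beta gene that is made without stress, was 1595, 2042 and 1671 with PyMT-N cells, 2419.6, 2660.4 and 2463 with PyMT-M cells and 539, 578 and 591 alone. All PyMT-M libraries were above all PyMT-N libraries, and these above all alone libraries. The fold change was 1.64 ± 0.15 with PyMT-N cells (adjusted p = 3.15e-07), 2.14 ± 0.15 with PyMT-M cells (adjusted p = 5.85e-08) and -0.51 ± 0.14 between the co-cultures (adjusted p = 0.0113), a last call that was lost without PyMT-N replicate 1 (-0.44) or 3 (-0.46). Hsp90aa1, the inducible HSP90 alpha gene, was 426, 520.4 and 529.7 with PyMT-N cells, 357, 416 and 355 with PyMT-M cells and 63.7, 77.7 and 101 alone. Both co-cultures were several-fold above the alone libraries, at 2.63 ± 0.20 with PyMT-N cells (adjusted p = 6.49e-08) and 2.24 ± 0.20 with PyMT-M cells (adjusted p = 6.12e-07). Of the 50-base words of its transcript 58.5% also occur in other genes, most of them in the copy Gm12346, which averaged 17.3 normalised CPM with PyMT-N cells, 12.6 with PyMT-M cells and 7.35 alone, so its counts are uncertain to that extent.

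Hsph1 encodes HSP110, which resets HSP70 by exchanging its nucleotide, and carries the heat shock element printed above. It stood at 88.1, 109 and 119 with PyMT-N cells, 129.6, 156 and 157 with PyMT-M cells and 5.79, 6.35 and 16.6 alone. The co-culture libraries lay far above all alone libraries, with fold changes of 3.62 ± 0.33 with PyMT-N cells (adjusted p = 3.45e-07) and 4.11 ± 0.32 with PyMT-M cells (adjusted p = 1.95e-07). Hspa8, the HSP70 gene that is made without stress, was 1171, 1136 and 1300.0 with PyMT-N cells, 1639.9, 1671 and 1605 with PyMT-M cells and 726, 862 and 1146 alone. It rose with PyMT-M cells by 0.85 ± 0.17 (adjusted p = 5.65e-04) and stood at 0.40 ± 0.17 with PyMT-N cells (adjusted p = 0.0527), a value that passed without alone replicate 3 (0.60, adjusted p = 0.00151), without PyMT-M replicate 3 (0.42), with the replicate block (0.42), with no count filter (0.47) and with library totals (0.70). Between PyMT-N and PyMT-M co-culture it stood at -0.45 ± 0.16 (adjusted p = 0.0470), a call lost with DESeq2 (-0.51) and in 7 of 9 fits that left out a library, all but those without alone replicate 1 or 3. Of its 50-base words 51.4% occur in other genes, of which the copy that shares the most had no count.

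The small heat shock protein gene Hspb1 (ENSMUSG00000004951, chromosome 5, 135887919 to 135889563, GRCm38) was detected mainly with PyMT-N cells. It had 35.0, 39.4 and 29.9 there, 0, 0 and 1.06 with PyMT-M cells and 0 in each alone library, from 404, 4 and 0 counts. With a floor of 3 counts over the alone libraries it was at least 71.5-fold higher with PyMT-N cells than alone, and the fitted log2 difference between PyMT-N and PyMT-M co-culture was 6.72. All 4 PyMT-M counts were in replicate 3, and leaving out a library moved that value to between 6.07 and 9.92, highest without that library. With PyMT-M cells it was not above the floor of 3 counts over the alone libraries. As it reached the count filter's minimum in PyMT-N libraries only, it had to differ, and no p is given. The keratin gene Krt18 averaged 332 normalised CPM with PyMT-N cells, 0.127 with PyMT-M cells and 0.697 alone, and Epcam 190.3 with PyMT-N cells, 1.92 with PyMT-M cells and 0 alone. The part of such epithelial transcripts in the Hspb1 difference was not tested. Of its 50-base words 51.6% also occur in Hsp25-ps1, which averaged 0.961 normalised CPM with PyMT-N cells and had none with PyMT-M cells or alone.

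Hspa1a and Hspa1b, neighbouring and near-identical genes of the stress-induced HSP70, were at or near 0 alone. Hspa1a had 5.74, 6.34 and 6.67 with PyMT-N cells, 0.645, 0 and 1.06 with PyMT-M cells and 0 in each alone library, from 74, 7 and 0 counts. With a floor of 3 counts over the alone libraries it was at least 13.1-fold higher with PyMT-N cells than alone. With PyMT-M cells the same floor gave 1.07-fold. That difference did not pass the threshold, and PyMT-M replicate 2 had 0, as had each alone library. Hspa1b had 12.9, 12.7 and 8.39 with PyMT-N cells, 4.08, 5.73 and 2.93 with PyMT-M cells and 0.446, 0 and 0 alone, from 130, 60 and 1 counts. The ratio to alone was 69.0 with PyMT-N cells (95% counting interval 12.2 to 2748) and 27.5 with PyMT-M cells (4.74 to 1103), also given without a p because no alone library reached the filter's minimum. The PyMT-N libraries were above all PyMT-M libraries for both, at 1.35 ± 0.40 for Hspa1b (adjusted p = 0.0157). For Hspa1a, which passed the filter only through the PyMT-N libraries, the fitted difference was 3.52, or 2.86 to 4.21 when a library was left out, highest without PyMT-M replicate 3 and lowest without PyMT-M replicate 2. Leukocyte scaling ended the Hspa1b call between the co-cultures (0.93), as did leaving out PyMT-N replicate 1 or 2 (1.24 and 1.26) or PyMT-M replicate 1 or 3 (1.30 and 1.16). Of their 50-base words 60.3% for Hspa1a and 62.3% for Hspa1b occur in other genes, nearly all in each other, so how reads were split between them is uncertain.

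Dnajb1, the HSP40 partner of HSP70, rose in neither co-culture by trimmed-mean scaling, though leukocyte scaling raised it with PyMT-M cells. It was 94.4, 62.8 and 82.6 with PyMT-N cells, 113, 123 and 120.1 with PyMT-M cells and 147, 131 and 134 alone. The alone libraries were highest and the PyMT-N libraries lowest, without overlap. By trimmed-mean scaling it fell with PyMT-N cells by 0.78 (SE 0.20, adjusted p = 0.00417), but stood at -0.49 with library totals (adjusted p = 0.0503) and at 0.42 with leukocyte scaling (adjusted p = 0.109). With PyMT-M cells it stood at -0.21 ± 0.20 (adjusted p = 0.378), against 1.45 with leukocyte scaling, and PyMT-N was below PyMT-M co-culture at -0.57 ± 0.19 (adjusted p = 0.0328), a call lost with no count filter (-0.58) and without PyMT-N replicate 2 or 3 or any PyMT-M library.

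The mitochondrial chaperonin rose in both co-cultures, and further with PyMT-M cells. Hspd1 (ENSMUSG00000025980, chromosome 1, 55077835 to 55088243, GRCm38), whose product HSP60 forms the folding chamber, stood at 224, 229 and 211 with PyMT-N cells, 431, 474 and 507 with PyMT-M cells and 19.6, 38.9 and 55.1 alone. All PyMT-M libraries were above all PyMT-N libraries, and these above the alone libraries. The gene rose by 2.60 ± 0.26 with PyMT-N cells (adjusted p = 1.02e-06) and by 3.69 ± 0.26 with PyMT-M cells (adjusted p = 7.66e-08), and stood at -1.09 ± 0.22 between PyMT-N and PyMT-M co-culture (adjusted p = 0.00112). Hspe1 encodes HSP10, the lid of that chamber, and shares that element with Hspd1. It was 16.4, 16.5 and 9.90 with PyMT-N cells, 38.9, 38.0 and 40.5 with PyMT-M cells and 4.01, 2.62 and 12.1 alone. The PyMT-M libraries were above all others, while the lowest PyMT-N library was below the highest alone library. The fold change was 1.42 ± 0.49 with PyMT-N cells (adjusted p = 0.0233), 2.89 ± 0.43 with PyMT-M cells (adjusted p = 5.12e-05) and -1.47 ± 0.31 between PyMT-N and PyMT-M co-culture (adjusted p = 0.00168). The first of these was lost without PyMT-N replicate 1 or 2 (1.31 and 1.30) or alone replicate 1 or 2 (1.24 and 0.97), and was 2.10 without alone replicate 3. Leaving out a library moved the value with PyMT-M cells to between 2.45 (without alone replicate 2) and 3.58 (without alone replicate 3). The genes have exons that overlap on opposite strands, and the strand setting is not given, so some counts of each may belong to the other. Of the Hspd1 words 44.8% occur in other genes, most in Hspd1-ps3, which averaged 4.83 normalised CPM with PyMT-N cells, 10.4 with PyMT-M cells and 0.376 alone.

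Set beside the elements printed above, 4 of the 7 genes with the ER stress response element were higher in each co-culture than alone and none was lower. Calr, Dnajc3 and Syvn1 had no call. Of all 36 genes 55.6% were higher with PyMT-N and 50% with PyMT-M cells, and of all genes tested 29.4% and 28.1%. The 4 of 7 are therefore near the share of the 36. With ERSE-II, Dnajb11 was higher in each co-culture, while Herpud1 was lower with PyMT-N cells by trimmed-mean scaling and at 0.0088 with leukocyte scaling. Of the 4 genes with the C/EBP-ATF element, Trib3 was higher in each co-culture and the others were not. All 3 genes with the heat shock element, Hspd1, Hspe1 and Hsph1, were higher in each co-culture, but Hspd1 and Hspe1 share the same matches and 3 genes are few to set against those shares. A match is a description of letters in a window, not of binding.

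The calls between the co-cultures depended on the scaling for part of the genes. In PyMT-N relative to PyMT-M co-culture, Xbp1, Chac1 and Sesn2 were higher under all 4 scalings. Hspa1a and Hspb1 were too, but they had passed the filter through PyMT-N libraries only, so they had to differ and their calls carry no weight. Pdia6, Herpud1, Eif2ak3, Hsp90ab1, Hspa8, Dnajb1, Hspd1 and Hspe1 were lower under all 4. Each alternative scaling shifted the median over all genes downward in this comparison. Lower calls could therefore hardly be lost, and only the higher calls were put to a test by the scalings. Some of the lower calls, such as Hspa8 and Dnajb1, were lost when a library was left out, as given above. The other 7 higher calls, for Hspa5, Pdia3, Dnajb9, Edem1, Ern1, Ppp1r15a and Hspa1b, were each lost under at least 1 scaling. Against alone, all 20 higher calls with PyMT-N cells and all 18 with PyMT-M cells passed under all 4 scalings. Hspb1 and Hspa1a are among the 20, and Hspa1b is among the 20 and among the 18. Of the lower calls Eif2ak3 with PyMT-N cells did and the others, 4 with PyMT-N and 5 with PyMT-M cells, did not. Each alternative scaling shifted the median over all genes upward against alone. Higher calls could therefore hardly be lost, and only the lower calls were put to a test by the scalings. Library totals added Dnajb9, Chac1 (0.93), Hspa8 and Atf3 (0.55) as higher with PyMT-N cells, Dnajc3 (0.89) and Sdf2l1 as higher with PyMT-M cells, and Hsph1 (-0.69) as lower between PyMT-N and PyMT-M co-culture. Leukocyte scaling gave 32 higher and 1 lower with PyMT-N cells, 31 higher and 0 lower with PyMT-M cells, and 5 higher and 11 lower between PyMT-N and PyMT-M co-culture.

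**Figure D4:**
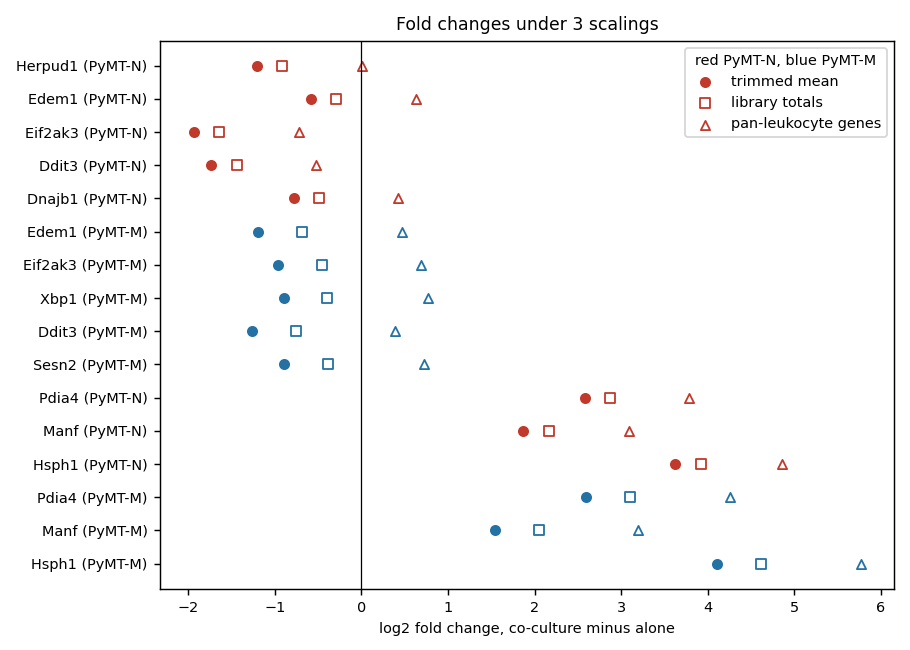
Log2 fold change against alone of the lower calls and of 3 higher ones (horizontal axis) under trimmed-mean scaling, library totals and pan-leukocyte scaling; red symbols are PyMT-N and blue symbols PyMT-M co-culture. Pdia4, Manf and Hsph1 stay above 0 under each, while Edem1 and the PyMT-M values of Eif2ak3, Xbp1, Ddit3 and Sesn2 lie below 0 under the first pair and above it under leukocyte scaling. Both alternatives to the trimmed mean shift values against alone upward.

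Further genes of the same pathways were counted from lists that do not hold the 36, and each count is to be read against the shares over all genes, 29.4% higher and 23.6% lower with PyMT-N cells, 28.1% and 27.9% with PyMT-M cells, and 19.1% and 15.5% between the co-cultures. Of 22 other ER folding and quality control genes, 12 were higher and 1 lower with PyMT-N cells than alone (54.5% and 4.55%) and 9 higher and 1 lower with PyMT-M cells (40.9% and 4.55%), with median log2 fold changes of 0.84 and 0.58 against 0.12 and -0.03 over all genes. The isomerase gene P4hb stood at 1065 ± 93.0 normalised CPM with PyMT-N cells, 909 ± 26.2 with PyMT-M cells and 436 ± 72.0 alone (1.29 ± 0.16 for PyMT-N against alone, adjusted p = 7.51e-06, and 1.07 ± 0.16 for PyMT-M against alone, adjusted p = 5.23e-05). The isomerase-like genes Txndc5 (2.16 ± 0.34 with PyMT-N and 2.25 ± 0.34 with PyMT-M cells, adjusted p = 9.21e-05 and 6.87e-05) and, with PyMT-N cells, Txndc11 (2.00 ± 0.31, adjusted p = 7.91e-05) rose too. Txndc11 had 67.9 ± 10.5 normalised CPM with PyMT-N cells, 35.7 ± 11.4 with PyMT-M cells and 16.4 ± 3.96 alone, and was also called higher with PyMT-M cells than alone. The ER retention receptor gene Kdelr3 had 410 counts with PyMT-M cells against 2 alone, a ratio of 93.8 with a counting interval of 25.8 to 777, given without a p because no alone library reached the filter's minimum. The oxidase gene Ero1lb fell by 1.14 with PyMT-N cells (adjusted p = 0.00155) and by 1.92 with PyMT-M cells (adjusted p = 2.78e-05), against leukocyte-scaled values of 0.084 with PyMT-N cells and -0.29 with PyMT-M cells. Its paralog Ero1l was higher with PyMT-N than with PyMT-M cells (1.73 ± 0.28, adjusted p = 1.62e-04), as was the ER reductase gene Dnajc10 (0.95 ± 0.23, adjusted p = 0.00384), while Kdelr3 was lower (-2.19 ± 0.35, adjusted p = 1.35e-04), among 7 higher and 1 lower of the 22 (31.8% and 4.55%). The folding gene Fkbp14 is among the 7, and among the 12 and the 9 higher than alone. It had 10.4 normalised CPM with PyMT-N cells, 1.51 with PyMT-M cells and 0 alone, but it passed the filter only through the PyMT-N libraries, so no p is given.

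Of 29 tested genes for entry into the ER and signal peptide processing, 15 were higher and 1 lower with PyMT-N cells (51.7% and 3.45%) and 13 higher and 3 lower with PyMT-M cells (44.8% and 10.3%), with medians of 0.71 and 0.49. Rpn1, a subunit of the complex that attaches glycans, had 263 ± 25.3 normalised CPM with PyMT-N cells, 72.8 ± 7.72 with PyMT-M cells and 45.9 ± 9.09 alone, a rise of 2.49 ± 0.21 with PyMT-N cells (adjusted p = 1.86e-07). Ssr3 of the translocon-associated complex rose in each co-culture (1.88 ± 0.24 with PyMT-N and 1.56 ± 0.24 with PyMT-M cells, adjusted p = 1.36e-05 and 8.17e-05), the channel gene Sec61a1 was among the 3 smallest p with PyMT-N cells (1.63 ± 0.23, adjusted p = 3.49e-05), and Rpn2 (1.79 ± 0.21, adjusted p = 7.68e-06) and Ssr2 (1.79 ± 0.29, adjusted p = 1.13e-04) were with PyMT-M cells. The signal peptidase gene Sec11c fell by 1.93 with PyMT-N cells (adjusted p = 7.92e-04) and by 1.09 with PyMT-M cells (adjusted p = 0.0200), where the PyMT-M value was 0.58 with leukocyte scaling. In PyMT-N relative to PyMT-M co-culture 3 were higher and 3 lower (10.3% each), led by Rpn1 (1.85 ± 0.19, adjusted p = 2.85e-06), Sec61a1 (1.22 ± 0.21, adjusted p = 3.64e-04), the signal recognition particle gene Srp14 (0.71 ± 0.26, adjusted p = 0.0426) and, in the other direction, the signal peptidase gene Spcs3 (-0.80 ± 0.17, adjusted p = 0.00212).

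Of 19 tested degradation genes outside the 36, 3 were higher and 1 lower with PyMT-N cells (15.8% and 5.26%), with a median of 0.05, and none was higher and 7 were lower with PyMT-M cells (36.8%), with a median of -0.40. The lectin gene Os9 stood at -1.58 ± 0.30 with PyMT-M cells (adjusted p = 3.72e-04) and Aup1 at -1.03 ± 0.20 (adjusted p = 6.02e-04), against leukocyte-scaled values of 0.048 for Os9 and 0.61 for Aup1. Faf2 (0.84 ± 0.23, adjusted p = 0.00605), Selenos (0.99 ± 0.27, adjusted p = 0.00629) and Derl2 (0.83 ± 0.28, adjusted p = 0.0209) were the 3 that rose with PyMT-N cells; Derl2 and Selenos encode parts of the membrane complex through which substrates leave the ER. Relative to PyMT-M co-culture, 5 were higher with PyMT-N cells (26.3%) and 0 lower, with Selenok (0.83 ± 0.20, adjusted p = 0.00431), Os9 (1.10 ± 0.29, adjusted p = 0.00737) and Edem2 (0.83 ± 0.22, adjusted p = 0.00799) at the smallest p.

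Of 9 tested signalling genes of the unfolded protein response, 3 were higher and 1 lower with PyMT-N cells (33.3% and 11.1%) and 2 higher and 2 lower with PyMT-M cells (22.2% each), so the shares higher were near those of all genes. Crebrf, a negative regulator in this pathway, had 108 ± 12.9 normalised CPM with PyMT-N cells, 164 ± 13.9 with PyMT-M cells and 385 ± 169.6 alone; it fell by 1.85 with PyMT-N cells (adjusted p = 5.50e-05) and by 1.24 with PyMT-M cells (adjusted p = 0.00126), the PyMT-M value being 0.42 with leukocyte scaling. The ER membrane protein gene Wfs1, which is among the 3 higher with PyMT-N cells, had 12.8 ± 5.88 normalised CPM with PyMT-N cells, 0.288 ± 0.0854 with PyMT-M cells and 0.623 ± 1.08 alone. No p is given because it passed the filter only through the PyMT-N libraries, so its part of that count was fixed in advance. The epithelial markers were also highest with PyMT-N cells, and their part was not tested. Creb3l2, a transcription factor gene whose product is anchored in the ER, rose in each co-culture (1.98 ± 0.61 with PyMT-N and 2.57 ± 0.57 with PyMT-M cells, adjusted p = 0.0131 and 0.00149). Tmbim6, an ER membrane protein gene, rose with PyMT-N cells (0.58 ± 0.16, adjusted p = 0.00523) and Mbtps1, the protease that activates ATF6, with PyMT-M cells (0.82 ± 0.23, adjusted p = 0.00788). In PyMT-N relative to PyMT-M co-culture Tmbim6 (0.98 ± 0.15, adjusted p = 1.45e-04) and Atf6b (0.78 ± 0.23, adjusted p = 0.0176) were higher and Mbtps1 lower (-0.67 ± 0.22, adjusted p = 0.0261).

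Of 22 other integrated stress response genes tested, 13 were higher and 2 lower with PyMT-N cells (59.1% and 9.09%, median 1.37) and 9 higher and 4 lower with PyMT-M cells (40.9% and 18.2%, median 0.30). Asns, the asparagine synthetase gene and a target of ATF4, had 127 ± 19.5 normalised CPM with PyMT-N cells, 194 ± 9.92 with PyMT-M cells and 16.8 ± 6.08 alone (2.84 ± 0.26 and 3.45 ± 0.26 against alone, adjusted p = 3.73e-07 and 1.14e-07). The eIF2 alpha kinase gene Eif2ak2, which interferon also induces, rose with PyMT-N cells (3.19 ± 0.28, adjusted p = 2.40e-07), as did the transcription factor gene Cebpb (2.45 ± 0.26, adjusted p = 2.04e-06). Eif2ak2 had 168 ± 37.4 normalised CPM with PyMT-N cells, 90.0 ± 10.4 with PyMT-M cells and 17.5 ± 5.78 alone, and was also called higher with PyMT-M cells than alone. Cebpb was not. Slc7a5, a subunit of an amino acid transporter, rose with PyMT-M cells (4.82 ± 0.35, adjusted p = 8.36e-08), as did Eif2s1, the eIF2 alpha gene itself (3.03 ± 0.28, adjusted p = 7.45e-07). Slc7a5 had 59.3 ± 7.01 normalised CPM with PyMT-N cells, 205 ± 13.6 with PyMT-M cells and 6.17 ± 5.61 alone. Eif2s1 had 105 ± 15.1, 146 ± 26.4 and 17.0 ± 5.75 in the same groups. Both were also called higher with PyMT-N cells than alone. Slc7a11, the cystine transporter gene and a target of ATF4, had 1197 ± 86.9 normalised CPM with PyMT-N cells, 508 ± 105 with PyMT-M cells and 2302 ± 932 alone; it fell by 0.95 with PyMT-N cells (adjusted p = 0.00642), against 0.28 with leukocyte scaling, and by 2.18 with PyMT-M cells (adjusted p = 1.24e-05), against -0.53 with leukocyte scaling. Set against PyMT-M co-culture, 9 were higher and 4 lower with PyMT-N cells (40.9% and 18.2%), led by Cebpb (2.16 ± 0.23, adjusted p = 3.22e-06), Nupr1 (2.13 ± 0.32, adjusted p = 6.83e-05), the NRF2 gene Nfe2l2 (1.16 ± 0.17, adjusted p = 7.43e-05) and, lower, Slc7a5 (-1.79 ± 0.25, adjusted p = 4.61e-05).

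Of 35 tested regulators and partners of the cytosolic heat shock proteins, 17 were higher and 3 lower with PyMT-N cells (48.6% and 8.57%) and 17 higher and 4 lower with PyMT-M cells (48.6% and 11.4%), with medians of 0.65 and 0.62. Fkbp4, an HSP90 partner that binds steroid receptors, had 113 ± 20.9 normalised CPM with PyMT-N cells, 186 ± 23.3 with PyMT-M cells and 17.2 ± 5.12 alone (2.77 ± 0.27 and 3.49 ± 0.27 against alone, adjusted p = 7.84e-07 and 1.57e-07). Its relative Fkbp5 had 48.4 ± 2.29 with PyMT-N cells, 187 ± 40.6 with PyMT-M cells and 226 ± 52.9 alone, a fall of 2.21 with PyMT-N cells (adjusted p = 1.36e-06), and was lower with PyMT-N than with PyMT-M cells (-1.94 ± 0.22, adjusted p = 7.79e-06). Serpinh1, the collagen chaperone HSP47 of the ER, had 141 ± 28.9 normalised CPM with PyMT-N cells, 513 ± 44.6 with PyMT-M cells and 0.125 ± 0.216 alone; against the single count alone the ratios were 872 (counting interval 156 to 34468) with PyMT-N cells and 3225 (579 to 127400) with PyMT-M cells. The small heat shock protein gene Hspb8 had 56.5 ± 1.94 with PyMT-M cells and no count alone, at least 118-fold higher with a floor of 3 counts over the alone libraries, and was lower with PyMT-N than with PyMT-M cells (-3.29 ± 0.34, adjusted p = 7.29e-06), as was Serpinh1 (-1.87 ± 0.20, adjusted p = 3.83e-06). Cryab, another small heat shock protein gene, had 85.4 ± 28.1 with PyMT-N cells, 18 ± 1.84 with PyMT-M cells and 1.95 ± 2.33 alone (5.84 ± 0.58 for PyMT-N against alone, adjusted p = 3.79e-07, and 2.25 ± 0.33 between PyMT-N and PyMT-M co-culture, adjusted p = 4.62e-05). Of the 12 tested mesenchymal markers 4 were higher and 7 lower with PyMT-N than with PyMT-M cells, and 7 were higher with PyMT-N cells and 10 with PyMT-M cells than alone. Their part in the values of Serpinh1 and Hspb8 was not tested. With PyMT-N cells 6 of the 35 were higher and 10 lower than with PyMT-M cells (17.1% and 28.6%).

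A list of 12 other genes was drawn up for mitochondrial protein folding, though it also holds proteases and Hsdl2, which is not a folding gene. Of these 12, 6 were higher and 0 lower with PyMT-N cells (50% higher) and 6 higher and 1 lower with PyMT-M cells (50% and 8.33%), with medians of 1.06 and 1.22. Hspa9, the mitochondrial HSP70, had 303 ± 18.7 normalised CPM with PyMT-N cells, 264 ± 62.5 with PyMT-M cells and 39.4 ± 13.8 alone (3.00 ± 0.25 and 2.80 ± 0.25 against alone, adjusted p = 1.79e-07 and 6.89e-07). The mitochondrial HSP90 gene Trap1 (1.54 ± 0.30 with PyMT-N and 2.34 ± 0.29 with PyMT-M cells, adjusted p = 4.59e-04 and 1.19e-05) and the protease gene Lonp1 (1.31 ± 0.27 and 1.86 ± 0.26, adjusted p = 7.69e-04 and 3.09e-05) also rose. Yme1l1, a protease of the inner membrane, fell with PyMT-M cells by 0.91 (adjusted p = 0.00632), against 0.74 with leukocyte scaling. None of the 12 was higher and 2 were lower with PyMT-N than with PyMT-M cells.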

How the data were processed

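Total RNA (150 pg per library) was purified on RNeasy Micro columns and amplified into libraries by the QIAseq FX Single Cell RNA kit, as the labels' protocols state. The authors deposited raw read counts per Ensembl gene. STAR and the mouse builds GRCm38 and mm10 are named in the submitters' processing notes; the counting tool, annotation and strand setting do not appear in the sources used here. GENCODE M21 (GRCm38) supplied symbols and positions for 54495 of 54532 identifiers, and RefSeq GRCm38.p6 the promoters.

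Low counts were removed by filterByExpr in edgeR 4.0.16 under R 4.3.3 (count minimum 10, total minimum 15), and libraries were scaled by trimmed mean. All 9 libraries entered 1 model in which each group had its own mean, and contrasts were tested by the robust quasi-likelihood F test with Benjamini-Hochberg adjustment over 12012 genes and a threshold of 0.05. Standard errors were taken as the absolute fold change over the root of F. The code was checked on simulated counts. A floor of 3 counts came to 0.573 to 2.26 normalised CPM by library; floors and counting intervals cover counting error only. Within each group the libraries varied beyond sampling noise (chi-square per degree of freedom 6.31 to 34.0). Levels of different genes were compared per kilobase of exon, and shared sequence was counted in words of 50 bases.

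Alternatives were relative log expression, library totals, scaling to 25 pan-leukocyte genes, no filter, at least 50 counts in 3 libraries, DESeq2 1.42.0, a fit of the compared groups, the replicate number as a block, a required log2 change of 1, and leaving out each library. The median log2 change of the pan-leukocyte genes themselves, with the trimmed mean, was -1.26 with PyMT-N cells and -1.69 with PyMT-M cells, each against alone, and 0.26 between PyMT-N and PyMT-M. All 36 genes are reported. From each further pathway list with at least 3 calls, the text names up to 3 genes with the smallest p values in the direction of most calls and 1 gene in the opposite one. Some genes that this rule picks are not reported here. The genes and lists, the pan-leukocyte list included, were chosen with earlier results of these data known.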

Additional observations from a re-analysis of the deposited data

Results flagged for a closer look

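Xbp1 was called in opposite directions against alone in the 2 co-cultures and differed between them in its own test. It stood at 378 ± 19.9 normalised CPM with PyMT-N cells, 108 ± 13.9 with PyMT-M cells and 198 ± 59.4 alone (SD, n = 3), and the difference between PyMT-N and PyMT-M co-culture was 1.81 ± 0.21 on the log2 scale (adjusted p = 1.01e-05, edgeR's quasi-likelihood test; higher in 3 of 3 libraries). The fall with PyMT-M cells depends on the scaling, at -0.90 by the trimmed mean, -0.40 by library totals and 0.76 by pan-leukocyte genes, whereas the rise with PyMT-N cells was 0.91, 1.20 and 2.13 in the same order. No other of the 36 genes met this rule.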

How the results depend on the processing

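Of the 108 fold changes of the 36 genes, 107 kept their side of the threshold, with no called value changing sign, with relative log expression, 92 with library totals, 69 with pan-leukocyte scaling, 104 with no filter, 104 with DESeq2 and 105 with the replicate block. All genes higher and lower with PyMT-N cells numbered 3531 and 2830, against 7349 and 774 with leukocyte scaling. With PyMT-M cells they numbered 3380 and 3352, against 8174 and 209 with leukocyte scaling and 1913 lower with library totals. Between PyMT-N and PyMT-M co-culture they numbered 2297 and 1863, against 1446 and 3501 with leukocyte scaling. Among the 36 genes, leukocyte scaling gave 32 higher and 1 lower with PyMT-N cells, 31 and 0 with PyMT-M cells and 5 higher between the co-cultures. Library totals gave 3 lower with PyMT-N and 2 lower with PyMT-M cells. An added fold change threshold of 1 gave 3 lower with PyMT-N cells, 2 lower with PyMT-M cells, and 5 higher and 2 lower between the co-cultures. Leaving out a library gave 4 to 8 lower with PyMT-M cells, with 8 without alone replicate 3, and 3 to 9 lower between the co-cultures, with 3 without PyMT-N replicate 3. Across the 9 fits that left out a library, 22 of 25 calls with PyMT-N cells, 18 of 23 with PyMT-M cells and 9 of 20 between the co-cultures passed in every fit. Hspb1 and Hspa1a, which passed the filter only through PyMT-N libraries, are among the 22 and among the 9. Hspa1b, for which no alone library reached the filter's minimum, is among the 22 and among the 18.

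Among values that passed the threshold under either scaling, signs reversed under leukocyte scaling with PyMT-N cells for Herpud1 (0.0088), Edem1 (0.63), Dnajb1 (0.42), Ero1lb (0.084) and Slc7a11 (0.28). With PyMT-M cells they reversed for Calr (1.61), Dnajb9 (1.38), Herpud1 (1.22), Edem1 (0.46), Syvn1 (1.29), Atf6 (1.34), Eif2ak3 (0.68), Xbp1 (0.76), Atf3 (1.44), Ddit3 (0.39), Sesn2 (0.73), Dnajb1 (1.45), Sec11c (0.58), Os9 (0.048), Aup1 (0.61), Crebrf (0.42) and Yme1l1 (0.74). Ern1 (0.93) and Chac1 (0.72) also changed sign with PyMT-M cells, without passing under either scaling. A changed sign is not always a call: Herpud1 and Dnajb1 with PyMT-N cells and Ddit3 with PyMT-M cells did not pass under leukocyte scaling. Ero1lb with PyMT-N cells and Os9 with PyMT-M cells stood at only 0.084 and 0.048 there. That scaling raises every value against alone by construction. Calr with PyMT-M cells ranged from -0.32 (without alone replicate 1) to 0.78 (without alone replicate 3) when a library was left out; the cause was not tested.

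With the replicate block, 20 of the 36 genes were higher and 5 lower with PyMT-N cells, 18 higher and 5 lower with PyMT-M cells, and 11 higher and 8 lower between PyMT-N and PyMT-M co-culture. The library names carry a number that recurs once in each group, and what it marks is not stated. Same-numbered libraries did not deviate together (correlations -0.078 to 0.029), and not every library correlated best with its own number. The lowest depth, 1641049 counts in alone replicate 3, limits what can be said of genes near 0 alone, such as Hspb1 and Hspa1a.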
